A study of Mus musculus with 8 samples.

Results

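The 10 genes described here encode extracellular parts of the Wnt pathway that connective tissue of the gut is known to make, namely the ligands Wnt2b, Wnt4, Wnt5a and Wnt5b, the R-spondins Rspo1 and Rspo3, and the inhibitor family members Dkk3, Sfrp1, Sfrp2 and Frzb. They were chosen by gene symbol, through the platform annotation, out of 16593 genes on the array. The array carried 15 probes for them, and 8 of the 10 genes had a probe that was detected on enough arrays to be tested. None of the 8 passed the threshold for a difference between knockout and wildtype colons.

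RNA had been taken from whole colons of C57BL/6 mice and measured on Illumina arrays, with 4 colons in each group. Wildtype mice were Villin-CreERT2-Ihh+/+ and knockout mice were Villin-CreERT2-Ihhfl/fl, so both groups carried the recombinase. Both groups were given tamoxifen into the peritoneum, 1 mg a day for 5 days, and killed for collection at day 7. The labels give no age. The Villin promoter drives the recombinase in the epithelium, so the mesenchymal cells are not the ones targeted, and a whole colon also holds muscle, nerve, vessel and immune cells.

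Wnt ligands are lipid-modified proteins that bind Frizzled receptors. With the co-receptors Lrp5 and Lrp6 they stabilise beta-catenin, while ligands such as Wnt5a also act through Ror2 and related receptors without beta-catenin. R-spondins bind Lgr receptors and keep the ligases Rnf43 and Znrf3 from removing Frizzled receptors, which strengthens the response to Wnt. Secreted frizzled-related proteins bind Wnt outside the cell. In the intestine, mesenchymal cells below and around the crypts supply Wnt ligands and R-spondins to the epithelium, which in turn sends Indian hedgehog to the mesenchyme. The comparison asks whether this set of transcripts differed after Ihh was targeted in the epithelium.

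Ihh, the targeted gene, had log2 intensities of 10.17 to 10.50 in wildtype and 9.03 to 9.56 in knockout colons (difference -1.05, SE 0.149, limma adjusted p = 0.130), and its groups did not overlap. Hhip, a hedgehog target, was detected in 4 wildtype and 0 knockout colons. In the background-corrected values Hhip was lower by at least 1.80-fold (limma adjusted p = 0.0131), a bound that holds for those values only. The Hhip call was lost in 14 alternatives, 7 of them among the 8 that leave out 1 mouse. Without background correction the Hhip signal differed by -0.36 (limma adjusted p = 0.204) and in the authors' table by -0.39 (limma adjusted p = 0.188). Where the Ihh probe lies relative to the deleted stretch was not analysed here. Between 14465 and 15040 of 25697 probes were detected per array. By Xist and the Y-linked genes, 1 wildtype and 3 knockout mice had the pattern of males. The mean log2 level of skeletal muscle markers ran from 6.32 to 9.30 in wildtype and from 6.40 to 10.8 in knockout colons, and that of skin markers from 6.23 to 11.3 and from 6.58 to 10.3. Epithelial markers such as Krt8 and Cdx2 and stromal markers such as Dcn were detected in all 8 colons. The numbered colons were taken as 4 mice per group, and limma p-values set a difference against the spread between these samples.

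Among the ligands, Wnt5a and Wnt4 had lower means in knockout colons and Wnt5b did not. Wnt5a, a ligand best known for signalling without beta-catenin, had log2 intensities of 8.89, 8.85, 8.93 and 8.62 in wildtype colons 1 to 4 and of 8.32, 8.49, 8.50 and 8.71 in knockout colons 1 to 4. Knockout colons 1 to 3 lay below every wildtype colon, while knockout 4 lay above wildtype 4, so the groups overlapped. The means were 8.83 ± 0.138 and 8.51 ± 0.159 (SD, n = 4 each). The difference was -0.32 (SE 0.125, 95% interval -0.60 to -0.04), or 1.25-fold lower signal, with an unadjusted limma p of 0.0312 and an adjusted p of 0.427. A second, dimmer Wnt5a probe was detected on 5 of 8 arrays and differed by -0.18 (SE 0.343, 95% interval -0.96 to 0.59).

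Wnt4, a ligand that acts with or without beta-catenin depending on the cell, had log2 intensities of 6.64, 7.08, 7.12 and 7.54 in wildtype and of 6.58, 7.07, 6.55 and 6.61 in knockout colons. Wildtype 1 was about as low as the 3 low knockout colons, and knockout 2 lay within the wildtype range. The difference was -0.39 (SE 0.202, 95% interval -0.85 to 0.07, limma adjusted p = 0.503), with means of 7.10 ± 0.370 and 6.70 ± 0.242 (SD, n = 4 each). The second Wnt4 probe was dimmer, near background, and was detected on all 8 arrays with detection p-values up to 0.0451. It gave -0.45 (SE 0.186, 95% interval -0.87 to -0.03), with an unadjusted limma p of 0.0400 and an adjusted p of 0.449. Its order of mice was not the same, since there wildtype 1 (5.72) lay below knockout 1 (5.94). Without background correction the Wnt4 difference was -0.17 (limma adjusted p = 0.515). Wildtype arrays lay at positions 1 to 4 of the beadchip and knockout arrays at positions 5 to 8, so position and genotype cannot be told apart. A fit with position as a linear term takes its slope from the order of arrays within each genotype, and gave -0.85 for Wnt4 (limma adjusted p = 0.985).

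Wnt5b, the close relative of Wnt5a, had log2 intensities of 6.41, 6.19, 6.34 and 6.24 in wildtype and of 6.38, 6.07, 6.40 and 6.47 in knockout colons. Both groups covered nearly the same values. The difference was 0.03 (SE 0.124, limma adjusted p = 0.934), and the 95% interval of -0.25 to 0.31 leaves room for a signal up to 1.19-fold lower or 1.24-fold higher. Wnt2b, a beta-catenin ligand of the gut mesenchyme, was detected on 0 of 8 arrays with either of its 2 probes. The detection p-values of the probes lay between 0.105 and 0.776, so a Wnt2b transcript was not measurable here above background, in either genotype, and no fold is given.

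**Figure D1:**
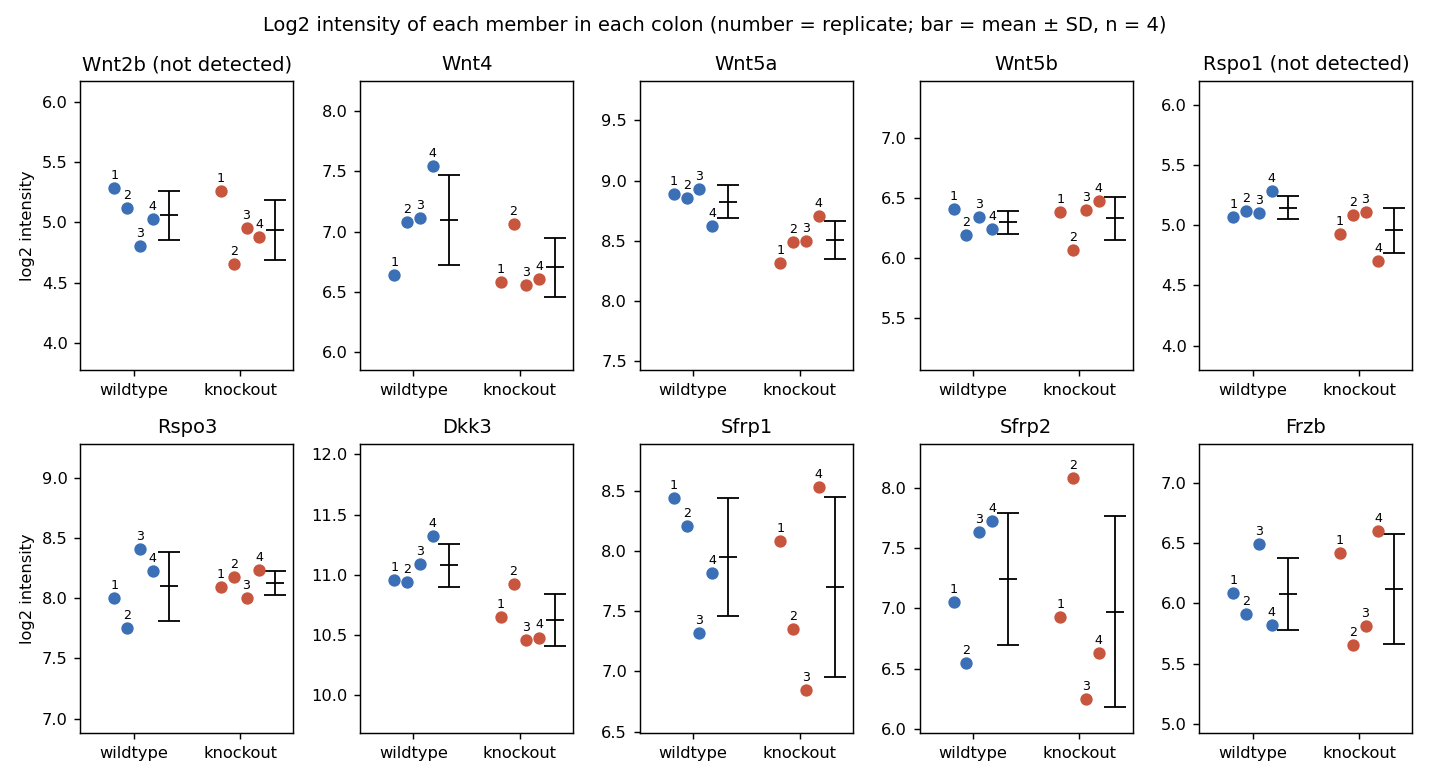
Log2 intensity of the 10 genes in each colon, with wildtype in blue and knockout in red, numbers naming the replicate and black bars giving the mean ± SD of 4 colons. Each panel spans the same number of log2 units. The Dkk3 groups stand just apart and those of the other 9 genes overlap, and the points of Sfrp1 and Sfrp2 scatter most.

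RefSeq promoter windows (GRCm38.p6), 250 bases before to 50 after a start site, were at hand for 6 of the 10 genes, in 8 windows. A pair is shown: that of Wnt4, the window richest in SP matches, and that of Wnt5b with a TCF/LEF match, the 1 window of the 8 to hold one. Both were chosen for their matches. Capitals mark every match, on either strand, to the SP motif GGGCGG or the TCF/LEF motif CTTTGAT.
Wnt4, chr4:137277385-137277684, plus strand: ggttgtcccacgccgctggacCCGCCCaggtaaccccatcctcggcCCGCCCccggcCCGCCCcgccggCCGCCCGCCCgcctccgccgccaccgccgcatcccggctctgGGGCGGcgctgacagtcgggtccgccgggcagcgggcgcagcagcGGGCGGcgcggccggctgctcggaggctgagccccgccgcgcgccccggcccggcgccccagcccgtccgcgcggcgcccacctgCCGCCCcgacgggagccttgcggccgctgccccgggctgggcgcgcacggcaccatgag
Wnt5b, chr6:119449337-119449636, minus strand: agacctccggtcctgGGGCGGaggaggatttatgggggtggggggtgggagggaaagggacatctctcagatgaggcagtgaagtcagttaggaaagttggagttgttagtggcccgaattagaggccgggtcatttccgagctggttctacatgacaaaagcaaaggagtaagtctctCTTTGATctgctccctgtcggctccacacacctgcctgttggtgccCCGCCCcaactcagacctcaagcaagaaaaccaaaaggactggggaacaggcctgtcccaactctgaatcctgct

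The Wnt4 window is 84.3% G and C and holds 8 SP matches, of which 1 pair overlaps, against a median of 52.7% G and C over all 32851 windows. The Wnt5b window is 55.0% G and C and holds 2 SP matches and 1 TCF/LEF match, which do not overlap. The other Wnt5b windows are 78.0% G and C with 3 SP matches and 53.0% with 0, and neither holds a TCF/LEF match. Matches to the SP motif occurred in 35.7% of all windows and to the TCF/LEF motif in 3.73%. The hedgehog effector motif of the GLI factors, GACCACCCA on either strand, was in 0 of the 8 windows of these genes and in 0.253% of all windows. These are matches of letters only. At so low a share for the GLI motif, 0 of 8 windows says little. No window was at hand for Wnt5a, Rspo3, Dkk3 and Sfrp1.

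Of the R-spondins, Rspo3 was measured and did not differ detectably. Rspo3, which mesenchymal cells near the crypt base are known to make, had log2 intensities of 8.004, 7.75, 8.41 and 8.22 in wildtype and of 8.09, 8.17, 8.002 and 8.23 in knockout colons. All 4 knockout values lay inside the wildtype range. The difference was 0.03 (SE 0.153, limma adjusted p = 0.960), with means of 8.10 ± 0.284 and 8.12 ± 0.101 (SD, n = 4 each). Its 95% interval of -0.32 to 0.37 runs from a 1.25-fold lower to a 1.30-fold higher signal. Rspo1 was detected on 0 of 8 arrays with its only probe (detection p-values of 0.103 to 0.706).

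Among the inhibitor family, Dkk3 had the lowest p of the 8 tested genes, and Sfrp1, Sfrp2 and Frzb varied more between mice than between genotypes. Dkk3 is a divergent Dickkopf protein whose effect on Wnt signalling varies with the setting. Its log2 intensities were 10.96, 10.94, 11.09 and 11.32 in wildtype and 10.65, 10.93, 10.46 and 10.48 in knockout colons. The groups did not overlap, but knockout 2 (10.93) came close to wildtype 2 (10.94). The difference was -0.45 (SE 0.146, 95% interval -0.78 to -0.12), or 1.37-fold lower signal, with an unadjusted limma p of 0.0131 and an adjusted p of 0.387. The second Dkk3 probe differed by -0.31 (SE 0.139, limma adjusted p = 0.463), and there knockout 2 (10.75) lay above wildtype 1 (10.64), so its groups overlapped. The other probe was detected on 1 of 8 arrays and was not tested.

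Sfrp1, a secreted frizzled-related protein, had log2 intensities of 8.44, 8.21, 7.32 and 7.82 in wildtype and of 8.08, 7.35, 6.85 and 8.53 in knockout colons. The highest and the lowest colon were both knockouts. The difference was -0.24 (SE 0.376, 95% interval -1.09 to 0.61, limma adjusted p = 0.816). Sfrp2, another protein of this family, had log2 intensities of 7.06, 6.55, 7.64 and 7.73 in wildtype and of 6.93, 8.09, 6.25 and 6.63 in knockout colons. Again the knockouts held both extremes. The Sfrp2 difference was -0.27 (SE 0.404, 95% interval -1.18 to 0.65, limma adjusted p = 0.811). Frzb, the other frizzled-related protein measured, had log2 intensities of 6.09, 5.91, 6.50 and 5.82 in wildtype and of 6.42, 5.65, 5.81 and 6.60 in knockout colons, a difference of 0.04 (SE 0.241, 95% interval -0.51 to 0.59, limma adjusted p = 0.962). The Frzb interval, the narrowest of these 3, runs from a 1.42-fold lower to a 1.5-fold higher signal.

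**Figure D2:**
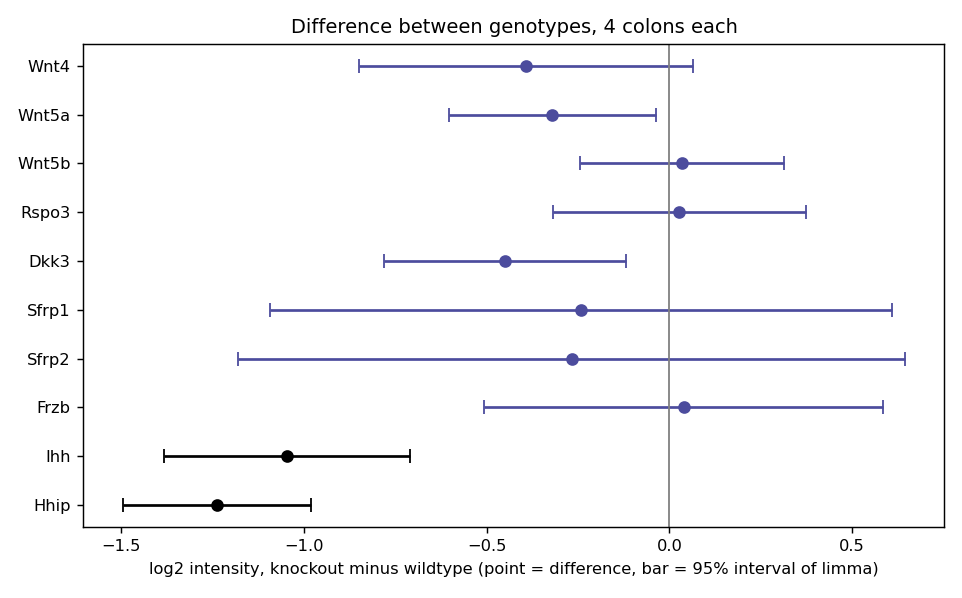
Difference in log2 intensity, knockout minus wildtype, for the 8 tested genes and for Ihh and Hhip, with points for the estimate and bars for the 95% interval of limma (4 colons per group, intervals not adjusted for multiple testing). Each gene is shown by its tested probe with the highest mean. The intervals of Wnt5a and Dkk3 lie below 0, those of the other 6 tested Wnt genes include it, and Ihh and Hhip lie further below 0. The Hhip point is a fitted value against knockout colons in which the probe was not above background, and is no bound.

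As a group, 5 of the 8 tested genes had a lower mean in knockout colons and 3 a higher one, with a median log2 difference of -0.26. Over all 10184 genes tested, 50.9% had a lower mean and the median was -0.0047. Limma called 0 of the 8 at an adjusted p under 0.05, where 0.0196% of all genes passed. At an unadjusted p under 0.05 there were 2 of 8, Dkk3 and Wnt5a, both lower, where 4.34% of all genes were lower at that level. Dkk3 was the 1 gene whose groups did not overlap, where 2.83% of all genes were lower without overlap. The median depended on 1 colon, since it was -0.0072 without knockout 3. It was -0.11 without background correction. With the linear term for array position, which is confounded with genotype, Rspo3 was at -0.29, Sfrp1 at 0.14, Frzb at -0.056 and Wnt5b at -0.015.

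The genes varied between mice to very different degrees. The within-genotype SD of Sfrp2 was 0.682 and that of Sfrp1 0.632, at the 96.3 and 95.4 percentiles of all genes tested, where the median gene had 0.237. Frzb followed with 0.387 and Wnt4 with 0.313. Wnt5b (0.144) and Wnt5a (0.149) varied little, at the 18.6 and 20.1 percentiles, and Dkk3 (0.198) and Rspo3 (0.213) lay near the middle. Knockout 3 was the lowest colon for 4 of the 8 genes, Wnt4, Dkk3, Sfrp1 and Sfrp2, and knockout 4 was the highest for 3, Wnt5b, Sfrp1 and Frzb.

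**Figure D3:**
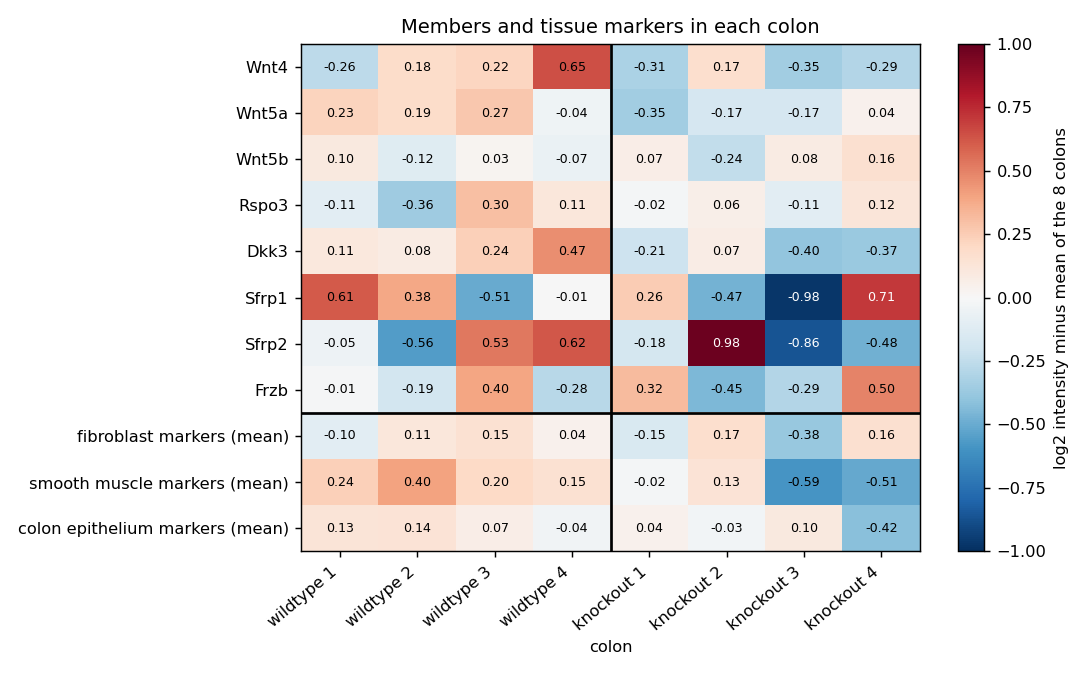
Log2 intensity of the 8 tested genes in each colon after the mean of the 8 colons is subtracted (upper rows), and the mean of the same quantity over fibroblast, smooth muscle and epithelial markers (lower rows). Red is above and blue below the gene's mean, on a scale from -1 to 1. Knockout 3 is low for most genes and for the fibroblast and smooth muscle markers.

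Markers of the cell types that could carry these transcripts were set beside them. In whole tissue, fewer cells of a type and less RNA per cell cannot be told apart. Of 12 fibroblast markers, all measured, 10 were lower in knockout colons with a median log2 difference of -0.13, and limma called 0 of them, also at an unadjusted p under 0.05. Their mean log2 level was 10.6 to 10.8 in wildtype and 10.3 to 10.9 in knockout colons, with the lowest value in knockout 3. Pdgfra, a receptor that marks gut fibroblasts, was at 0.17, and Dcn, a matrix proteoglycan, at -0.16. Of 11 smooth muscle markers, 11 were lower, with a median of -0.49, 0 called by limma and 4 at an unadjusted p under 0.05, and the mean level was 11.5 to 11.8 in wildtype and 10.8 to 11.5 in knockout colons. Lmod1 (-0.51) and Cald1 (-0.87), both of the contractile apparatus, were lower without overlap. Over all genes tested, 4.34% were lower at an unadjusted limma p under 0.05 and 2.83% lower without overlap. The differences of Wnt4, Dkk3, Wnt5a, Sfrp1 and Sfrp2 had the same sign as those of the smooth muscle markers, whose part in them was not tested. That sign was not particular to smooth muscle. The pericyte and endothelium markers had a median of -0.14, the enteric neuron and glia markers of -0.28 and the skin markers of -0.75. Skeletal muscle (0.59) and mesothelium markers (0.12) had medians of the other sign. The tested adipocyte markers, Adipoq (-0.89) and Lep (-0.63), were lower as well. The mean of both, each relative to its average over the 8 colons, ran from -0.23 to 1.37 in wildtype and from -0.94 to 0.62 in knockout colons. It was highest in wildtype 4 and lowest in knockout 3, as for Dkk3 and Wnt4. These extremes were not particular to adipocyte markers. On the same scale the pericyte and endothelium markers were highest in wildtype 4 (0.32) and lowest in knockout 3 (-0.29). Knockout 3 was also lowest for fibroblast (-0.38), smooth muscle (-0.59) and enteric neuron and glia markers (-0.49). In the remaining marker lists another colon was lowest. Ano1, the tested marker of interstitial cells of Cajal, was at -0.38 (SE 0.142, limma adjusted p = 0.410). All 4 immune markers had higher means, with a median of 0.23. Cd79a, a B cell receptor component, was at 0.74 (SE 0.171, limma adjusted p = 0.284) without overlap, where 4.85% of all genes were higher without overlap. The part of these cell types was not tested. Epithelial markers had a median of -0.079 over 10 genes, and their mean level was 12.1 to 12.3 in wildtype and 11.7 to 12.2 in knockout colons.

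Across the 8 colons, 28 pairs of the tested genes were compared. The closest pair was Wnt4 with Dkk3 (Pearson r = 0.877, exact permutation p = 0.0023, adjusted p = 0.0632 over the 28 pairs; Spearman rho = 0.905, exact permutation p = 0.0046, adjusted p = 0.128). Without the 2 colons farthest from the Wnt4 median, r was 0.735, and with genotype means removed it was 0.837. Neither genotype holds enough colons for a value of its own. Dkk3 with Sfrp2 came next (r = 0.724, exact permutation p = 0.0444, adjusted p = 0.412). No pair passed after adjustment, and 2 of 28 had an unadjusted p under 0.05. Wnt5a and Wnt5b, the related ligands, had r = 0.094.

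Over the 8 colons, the gene with the highest Pearson correlation among 10183 others was sought for each member. For Dkk3 it was Vasn, which encodes a membrane protein (r = 0.988, n = 8 mice), with log2 values of 8.76 to 9.22 in wildtype and 8.33 to 8.72 in knockout colons. For Wnt4 it was Rcsd1 (0.975), for Wnt5a Tenm3 (0.952), for Wnt5b Cdc16 (0.977) and for Rspo3 Pstpip1 (0.934). For Sfrp1 it was Tcf20 (0.977), for Sfrp2 H2al1m (0.958) and for Frzb Mtif3 (0.953). None of these was a member of the set. Each is the highest of many correlations over 8 colons and describes these arrays. Tenm3 was detected in 4 wildtype and 1 knockout colons and H2al1m in 3 and 1, so their values lay partly at background.

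Outside the 10 genes, transcripts of the same pathway were followed through 8 lists with 97 genes on the array, of which 57 could be tested. Limma called 0 of the 57, with 4 lower and 4 higher at an unadjusted p under 0.05, where 4.34% of all genes were lower and 6.7% higher at that level, and 34 had a lower and 23 a higher mean. None of the 15 other Wnt ligands on the array could be tested, and 10 of them were detected in no colon. Wnt4, Wnt5a and Wnt5b were thus the listed ligands that could be tested. Rspo2 and Rspo4 could not be tested either, so Rspo3 was the 1 measurable R-spondin.

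Of 6 other tested inhibitors, 5 were lower, with a median of -0.20. Sostdc1, a secreted antagonist of Wnt and BMP, was at -0.38 (SE 0.142, limma adjusted p = 0.417). Apcdd1, a membrane inhibitor, was at -0.43 (SE 0.319) and was detected in 4 wildtype and 2 knockout colons. Kremen2, a Dickkopf co-receptor, was at -0.23 and Wif1, which binds Wnt, at -0.14. Dkk1, Dkk2, Dkk4, Sfrp4, Sfrp5 and Notum were not detected on enough arrays for a test. Of the 5 genes for the release of Wnt ligands, 3 were lower. Porcn, the acyltransferase that adds the lipid to Wnt proteins, was at -0.44 (SE 0.186, limma adjusted p = 0.450), and Wls, which carries Wnt to the surface, at -0.05 (SE 0.131). Gpc6, a cell surface proteoglycan, was at -0.46 (SE 0.283) and was detected in 3 wildtype and 2 knockout colons. Vps35, which recycles Wls, was at 0.10. Porcn lay at 8.51 to 9.22 in wildtype and 8.07 to 8.55 in knockout colons.

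Among 12 tested receptors, 10 were lower and the co-receptors Lrp6 and Lrp5 were the 2 higher ones. Lrp6 had log2 intensities of 6.79, 6.55, 8.16 and 6.45 in wildtype and of 8.06, 8.02, 8.42 and 8.51 in knockout colons. Wildtype 3 lay among the knockouts. The difference was 1.27 (SE 0.353, 95% interval 0.47 to 2.06, limma adjusted p = 0.353), or 2.40-fold, and 0.65 without background correction. Lrp5 had values of 7.70, 7.52, 7.50 and 7.22 in wildtype and of 7.90, 7.87, 7.82 and 8.31 in knockout colons, without overlap, where 4.85% of all genes were higher without overlap. Its difference was 0.49 (SE 0.153, limma adjusted p = 0.382). Ror2, the receptor through which Wnt5a is known to act, was at -0.32 (SE 0.149) and Fzd2, a Frizzled receptor, at -0.57 (SE 0.267), neither past the threshold. Lgr5, an R-spondin receptor of crypt base stem cells, was at -0.75 (SE 0.247, limma adjusted p = 0.387), with 7.84, 7.80, 7.00 and 7.25 in wildtype and 7.13, 6.61, 6.92 and 6.26 in knockout colons. Rnf43, the ligase that R-spondins hold back, was at -0.04.

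Further along the pathway, 8 of 12 relay genes and 8 of 12 Wnt target genes were higher, with medians of 0.046 and 0.15, and limma called 0 in either list (0 and 2 at an unadjusted p under 0.05). Over all genes, 4.34% were lower and 6.7% higher at that level. In the relay, Gsk3a, a kinase that marks beta-catenin for breakdown, was at 0.60 (SE 0.274, limma adjusted p = 0.471), Apc, a scaffold of the same complex, at 0.21, Csnk1a1, its priming kinase, at 0.16 and Tle3, a co-repressor, at 0.14. Gsk3b, the other Gsk3 kinase of the list, went the other way, at -0.25 (SE 0.306), and was 1 of 4 lower relay genes. Of the targets, Cdca7 (0.32, SE 0.119) and Cd44 (0.30, SE 0.118) were higher without overlap, where 4.85% of all genes were so. The other tested Cd44 probes differed by 0.33 to 0.69. Sp5 was at 0.54 and Nkd2, a feedback inhibitor, at -0.52. Axin2, the usual readout of beta-catenin signalling, was at -0.20 (SE 0.194, limma adjusted p = 0.690). Of the 8 planar polarity genes 6 were lower. Daam1, a formin downstream of Wnt5a-type signalling, was at -0.28 (SE 0.101, limma adjusted p = 0.407). It was lower without overlap, where 2.83% of all genes were so. Camk2g, a kinase of the calcium branch, was at -0.14, and the cadherins Celsr1 and Celsr2 were at 0.20 and -0.13.

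**Figure D4:**
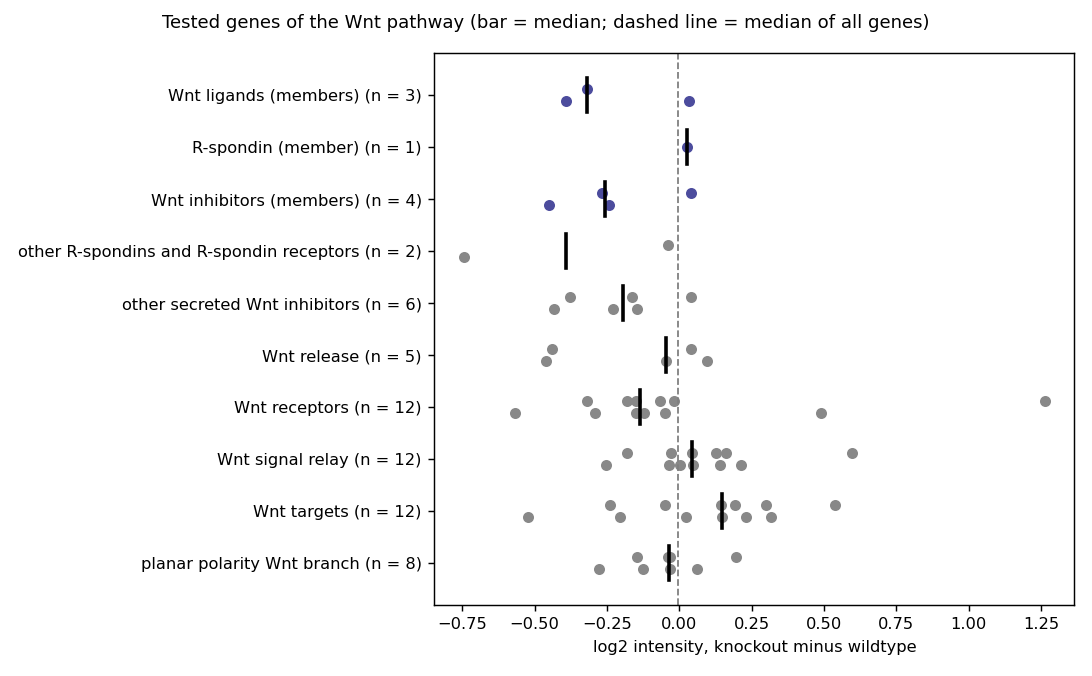
Log2 difference, knockout minus wildtype, of every tested gene of the Wnt pathway by list, with 1 point per gene, the 8 genes of the set in blue, other lists in grey, black bars for list medians and a dashed line for the median of all genes. List medians lie between -0.39 and 0.15, and Lrp6 is the point at 1.27.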

How the data were processed

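The authors extracted RNA from whole colons with Trizol, cleaned it on RNeasy columns with DNase I, and amplified it with the Illumina TotalPrep method, per the labels' protocols. The submitters' processing notes name GenomeStudio without a version. Per the file headers, each probe of the deposited raw table has a mean bead intensity. Beside it stands a deposited detection p-value. A second deposited table of processed intensity matches a quantile normalization of the raw values to within 0.0278 on the log2 scale, and how the authors made it is not stated.

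The neqc function of limma 3.58.1 (R 4.3.3) removed background by normexp, using detection p-values, added 16, applied quantile normalization and took log2. Probes detected (p under 0.05) on 4 or more of the 8 arrays, 14754 in all, were tested with lmFit and eBayes, genotype being the only term, two-sided, adjusted by Benjamini-Hochberg over all of them, with calls at 0.05. The tested probe with the highest mean stands for a gene, and levels of different probes are not compared. The number of arrays limits the precision. The fit was also run on simulated data with independent noise, as a check of the procedure. How often changes as small as those of the members would be called is not given here.

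The members and lists were chosen with earlier results of these data known. Named are all members, Ihh, Hhip, the up to 4 genes of each Wnt list with the smallest p, the gene most correlated with each member, and Axin2 and some marker and undetected genes, which were chosen after their values were seen. The alternatives concerned background, normalization, detection filter, terms for replicate number, position, sex and attached tissue, variance, probes, fold and each mouse.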

Additional observations from a re-analysis of the deposited data

Results flagged for a closer look

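Of 88 groups of 4 colons (44 named genes in 2 genotypes), 6 held a value far from the other 3, and chance gives about 1 in 20. Wnt4 in knockout 2 was at 7.07, against 6.55 to 6.61 in the other knockouts, and this is the colon that lay within the wildtype range. Kremen2 in knockout 2 was at 8.45, below 8.83 to 8.88 in the others. Lrp5 in knockout 4 was at 8.31, above 7.82 to 7.90. Daam1 in knockout 4 was at 8.19, below 8.31 to 8.33. Celsr2 in wildtype 4 was at 7.16, below 7.84 to 7.89. H2al1m in wildtype 2 was at 4.99, below 5.63 to 5.76, with a probe detected in only 3 of the 4 wildtype colons.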

How the results depend on the processing

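In all 22 alternatives limma called 0 of the measured members. Wnt5a, Wnt4, Dkk3 and Sfrp2 kept a lower mean in every one, with ranges of -0.42 to -0.23, -0.85 to -0.17, -0.55 to -0.37 and -0.64 to -0.014, while Rspo3, Wnt5b, Sfrp1 and Frzb did not keep their sign. Some alternatives could not have given another sign. The replicate block, the trended variance prior and the fold threshold cannot change a difference, and the fold threshold cannot add a call. A detection filter can change a difference only through the probe chosen. The members' median lay between -0.26 and -0.0072 when 1 mouse was left out and moved by more than the spread between mice only without knockout 3 (-0.0072). The number of all genes called, 2, ranged from 0 to 10 when 1 mouse was left out, with 10 without knockout 1. It was 0 without background correction, in the authors' table, with detection required on all arrays, with array position, sex pattern or the attached tissue scores as terms and with the replicate number as a block, 1 with the trended variance prior and where a gene's probes were averaged, and 3 with array weights. Same-numbered mice did not clearly deviate together (correlations of -0.178 to 0.210). Of the 8 arrays, 3 matched best the array of their own number in the other genotype. Whether the numbers mark a pairing cannot be told from this. The replicate block left the median at -0.26, as it must, since each number occurs once in each genotype. With array position as a linear term, which is confounded with genotype (wildtype at positions 1 to 4, knockout at 5 to 8), the sign turned for Wnt5b (-0.015), Rspo3 (-0.29), Sfrp1 (0.14), Frzb (-0.056), Lgr5 (0.23), Kremen2 (0.13), Gpc6 (0.24), Vps35 (-0.17), Fzd2 (0.47), Apc (-0.050), Csnk1a1 (-0.24), Cd44 (-0.045), Sp5 (-0.12), Celsr1 (-0.44), Celsr2 (0.20), Cdc16 (-0.092), Tcf20 (0.13) and H2al1m (0.19). With sex pattern as a term the sign turned for Rnf43 (0.25), Tle3 (-0.0050) and Pstpip1 (0.092). With skeletal muscle and skin scores as terms the sign turned for Rnf43 (0.30), Wls (0.011), Pstpip1 (0.054) and Mtif3 (-0.029). With array weights the sign turned for Rnf43 (0.21), Pstpip1 (0.11), H2al1m (0.067) and Mtif3 (-0.015). With median scaling the sign turned for Pstpip1 (0.0028). Averaging a gene's probes, the sign turned for Tcf20 (0.18). With cyclic loess the sign turned for Mtif3 (-0.0048). When 1 mouse was left out the sign turned at least once for Wnt5b (-0.014 to 0.12), Rspo3 (-0.088 to 0.13), Sfrp1 (-0.52 to 0.043), Frzb (-0.12 to 0.20), Rnf43 (-0.20 to 0.24), Vps35 (-0.011 to 0.19), Wls (-0.12 to 0.0079), Cdc16 (-0.042 to 0.13), Pstpip1 (-0.13 to 0.13), Tcf20 (-0.19 to 0.052), H2al1m (-0.41 to 0.055) and Mtif3 (-0.042 to 0.049). The causes were not tested. Signals near background limit Wnt2b, Rspo1, Frzb, Wnt5b and the second probes of Wnt4 and Wnt5a. Outside the set they also limit Gpc6, Apcdd1, Tenm3 and H2al1m, each detected in only part of the colons.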
